A study of Danio rerio with 9 samples.

Results

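The levels of 5 genes of early motor and sensory neurons were followed across zebrafish hindbrain tissues: slc18a3a, ret, nefma, neurod1 and scn8aa. They were chosen by name, with earlier results of these data known. Each was found through the probe-to-gene table of the array after symbols had been updated by Entrez gene ID. Every one of the 5 had 1 probe, so they make up 5 of 5355 named genes and 5 of 16227 probes tested. The study asked which genes of rhombomere 4, a segment of the embryonic hindbrain, depend on the transcription factor Hoxb1a. Per the labels, embryos carried the islet1-GFP transgene, a reporter of Islet1-expressing neurons, and were dissected at 19 to 20 hours post fertilization. Normal r4 was rhombomere 4 of untreated embryos, Hoxb1a-deficient r4 was rhombomere 4 of embryos injected with a morpholino, an antisense oligonucleotide, against hoxb1a, and normal r2 was rhombomere 2 of untreated embryos. Each group had 3 samples, and each sample pooled 8 to 10 embryos. Replicate 2 of normal r2 carries no strain or stage tag of its own. Per the labels, a thick slice across the hindbrain was taken around the segment, so a sample holds all cells of the slice and was not sorted for GFP. The cells were dissociated with trypsin, and the RNA was amplified before it was labelled with biotin. Experiment 1 gave 1 normal r4 and 1 Hoxb1a-deficient r4 sample, experiment 2 gave 1 sample of each group, and experiment 3 gave 1 of each r4 group and 2 of normal r2 (3a and 3b).

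Motor neurons of the cranial nerves are born in fixed hindbrain segments: those of the trigeminal nerve in rhombomeres 2 and 3, and those of the facial nerve in rhombomere 4, from where they migrate tailward. Sensory neurons of the cranial nerves lie outside the hindbrain in ganglia that arise from placodes and neural crest, and those of the statoacoustic ganglion form beside the ear. Of the 5 genes, neurod1 encodes a basic helix-loop-helix transcription factor that drives neuronal differentiation, in cranial ganglia among other places. The gene slc18a3a encodes a vesicular acetylcholine transporter, which loads the transmitter of motor neurons into synaptic vesicles. The receptor tyrosine kinase Ret receives signals of the GDNF family and is found in motor and sensory neurons, nefma encodes the medium neurofilament protein of growing axons, and scn8aa encodes a voltage-gated sodium channel of the Nav1.6 type.

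Levels are given as multiples of the array median, as deposited. Where a level is near 1 or less the probe is one of the dimmer ones, and the sources used here do not say which of these were above background, so folds that involve such levels are folds of the deposited values only. Differences were tested on log2 levels with limma across all probes, and a change counts as called at an adjusted p under 0.05 (Benjamini-Hochberg). The labels name separate experiments but not separate clutches, so the p-values measure the spread between these samples. In such whole-tissue samples fewer cells of a type and less RNA per cell cannot be told apart.

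The arrays of experiment 1 stood apart from the rest. Their upper quartile was 6.87 and 6.15 against 3.64 to 4.75 on the other 7 arrays, and their log2 levels correlated with those of the other arrays at 0.933 to 0.954, where arrays of experiments 2 and 3 correlated at 0.963 to 0.991. Both arrays of experiment 1 lay above all 7 others for 25.5% of all probes. Of 172 control spots for actb2, 56 lay below the array median on both arrays of experiment 1 and 0 did so on any other array. Differences of the 5 genes are therefore also given within single experiments. Some of their fits are given without experiment 1, an alternative that was chosen after the data had been seen. Sums and medians of gene lists include experiment 1 unless an experiment is named, and normal r2 has no array of it.

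The targeted gene hoxb1a had a mean level of 2.44 ± 0.571 in normal r4, against 2.07 ± 0.959 where Hoxb1a was deficient and 0.644 ± 0.113 in r2 (SD, n = 3 each). It was lower in r2 than in normal r4 (log2 fold change -1.91, limma adjusted p = 0.0285), and its difference between the r4 groups did not pass the test (-0.30, adjusted p = 1.00). The labels do not say whether the morpholino blocks translation or splicing, and the first kind leaves the transcript in place, so the transcript level does not check these labels. The tissues were told apart by other segment genes: otx2b of the midbrain and fgf8a of the isthmus were higher in r2 (log2 fold changes 3.37 and 2.19, adjusted p = 0.00749 and 0.00907), and egr2b of rhombomeres 3 and 5 was lower (-1.70, adjusted p = 0.0363).

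Of the 5 genes 2 differed strongly between the segments. Against normal r4, neurod1 was 8.20-fold and slc18a3a 4.61-fold lower in normal r2, which has no array of experiment 1. Within experiments 2 and 3 the folds were 5.8 and 7.2 for neurod1 and 3.3 and 6.3 for slc18a3a. Both genes were also lower in r2 than in Hoxb1a-deficient r4. These 2 calls of 5 stand beside 0.444% of all probes called lower in r2 than in normal r4. Groups without overlap, with r2 lower, were found for 3 of the 5 (slc18a3a, neurod1 and nefma) and for 5.05% of all probes. The 5 genes were chosen with earlier results of these data known, so shares among them are not a test of the set. The level of nefma was also lowest in r2, where its difference from normal r4 depended on the fit, and ret and scn8aa showed no called difference. Between Hoxb1a-deficient and normal r4 none of the 5 passed the limma test, beside 0.0% of all probes (0.0123% with the experiment as a block), and nefma came nearest with levels 1.53 to 1.60-fold lower in each of the 3 experiments. Without adjustment, 82 probes (0.505%) had a p under 0.05 in that comparison, and nefma was the 1 gene of the 5 among them. With the experiment as a block 932 probes (5.74%) had one, and both nefma and slc18a3a were among these.

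**Figure D1:**
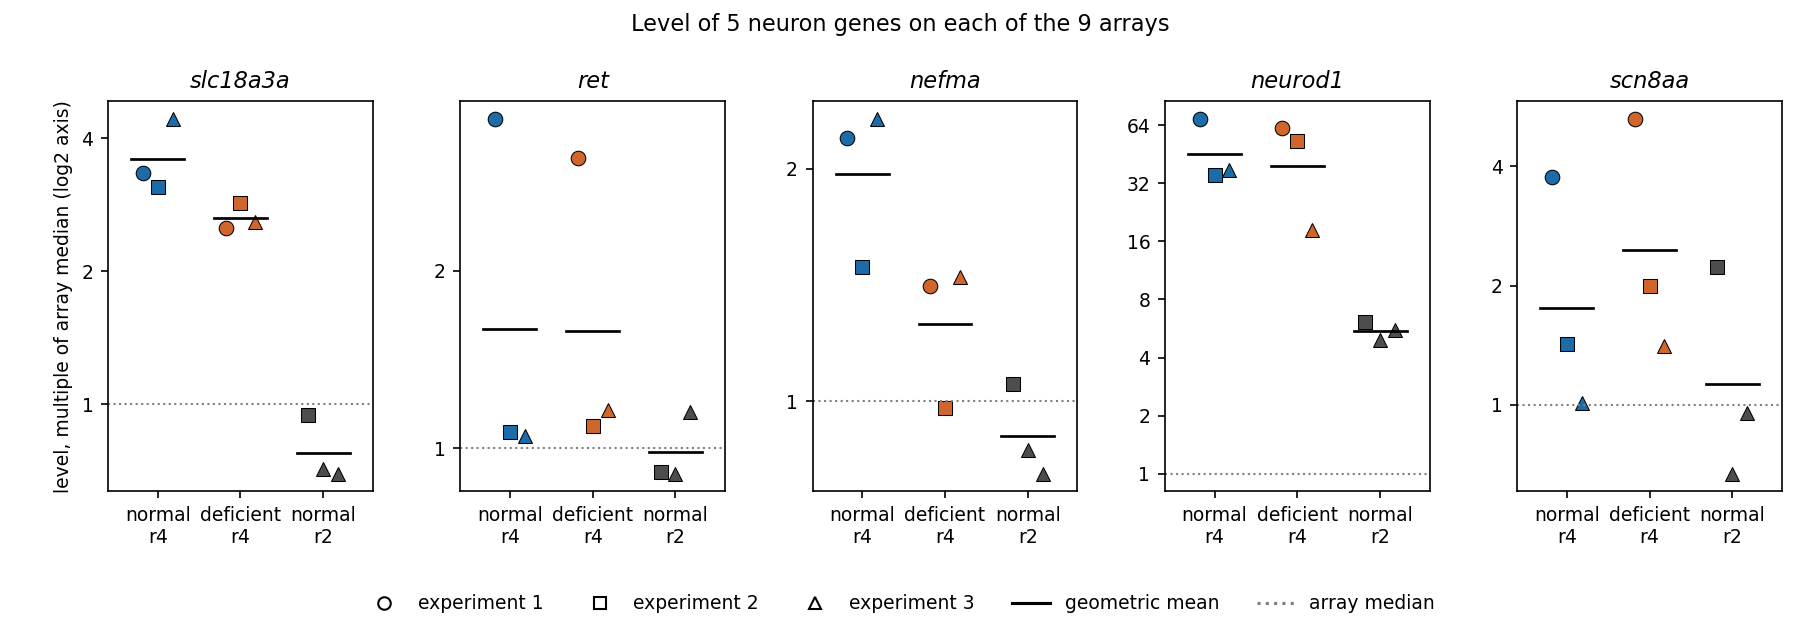
Level of each of the 5 genes on the 9 arrays, as a multiple of the array median on a log2 axis with its own range for each gene. Symbols mark the experiment, bars are geometric means of 3 arrays, and the dotted line is the array median. The r2 arrays lie below all r4 arrays for slc18a3a and neurod1, and the experiment 1 arrays lie above all others for ret, neurod1 and scn8aa.

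The transcription factor gene neurod1 measured 69.4, 35.5 and 37.6 in normal r4 of experiments 1, 2 and 3. In Hoxb1a-deficient r4 it measured 61.9, 53.3 and 18.4, and in normal r2 it measured 6.1 in experiment 2 and 4.94 and 5.58 in experiment 3. All 6 r4 arrays lay above all 3 r2 arrays, and the 2 r4 groups overlapped. The spread among r4 arrays was wide (47.5 ± 19.0 in normal r4 and 44.5 ± 23.1 in Hoxb1a-deficient r4, SD, n = 3), and that among r2 arrays narrow (5.54 ± 0.581). These spreads do not cover the same experiments, since r2 has no array of experiment 1. In experiments 2 and 3 alone normal r4 lay close together (35.5 and 37.6) and Hoxb1a-deficient r4 did not (53.3 and 18.4).

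Normal r2 was lower than normal r4 in neurod1 by a log2 fold change of -3.04 ± 0.43 (SE, limma adjusted p = 0.0101), and within experiments 2 and 3 by -2.54 and -2.84. With the experiment as a replicate block the change was -2.63. Hoxb1a-deficient r4 was higher than normal r2 by 2.83 ± 0.43 (adjusted p = 0.0165), beside 0.382% of all probes called higher in that comparison and 4.09% higher without overlap. Within experiments 2 and 3 this difference was 3.13 and 1.81, and with the replicate block it was 2.43. Both calls held in experiments 2 and 3 alone (-2.73, adjusted p = 0.0140, and 2.50, adjusted p = 0.0222). Of the 3 r2 samples 2 came from experiment 3, and with these averaged neither call held (-3.00, adjusted p = 0.0594, and 2.80, adjusted p = 0.0892). Without r2 replicate 3a or 3b the first had adjusted p = 0.0673 and 0.0550. The second had adjusted p from 0.0640 to 0.109 when any 1 of the 3 r2 arrays or Hoxb1a-deficient r4 replicate 2 was left out.

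Between Hoxb1a-deficient and normal r4, neurod1 moved in different directions by experiment, with log2 differences of -0.16, 0.59 and -1.04 in experiments 1, 2 and 3. The fitted change was -0.20 with a 95% confidence interval from -1.16 to 0.76, and from -0.80 to 0.39 with the experiment as a replicate block. The gene groups set beside it here were lowest in experiment 3 too. The median log2 difference was 0.05, 0.18 and -0.32 for the 13 other sensory neuron genes measured, -0.03, 0.18 and -0.31 for 19 otic vesicle genes, and 0.08, 0.31 and -0.60 for 15 skin and periderm genes, highest in experiment 2 as for neurod1. It was 0.12, -0.02 and -0.32 for the 16 other proneural genes and 0.06, 0.00 and -0.09 for all probes, highest in experiment 1. Their part in the neurod1 differences was not tested.

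The vesicular acetylcholine transporter gene slc18a3a measured 3.34, 3.10 and 4.43 in normal r4 of experiments 1, 2 and 3. It measured 2.51, 2.84 and 2.58 in Hoxb1a-deficient r4, and 0.944 in experiment 2 and 0.712 and 0.696 in experiment 3 in normal r2. The 3 groups did not overlap: each normal r4 array lay above each Hoxb1a-deficient r4 array, and all 3 r2 arrays lay below the array median. Group means were 3.62 ± 0.709, 2.64 ± 0.177 and 0.784 ± 0.139 (SD, n = 3).

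Normal r2 was lower than normal r4 in slc18a3a by a log2 fold change of -2.20 ± 0.23 (SE, limma adjusted p = 0.00161), and within experiments 2 and 3 by -1.71 and -2.65. Hoxb1a-deficient r4 was higher than normal r2 by 1.77 ± 0.23 (adjusted p = 0.00764), and within experiments by 1.59 and 1.87. The second call was lost with the r2 samples of experiment 3 averaged (1.70, adjusted p = 0.0563) and without either of them (adjusted p = 0.0554 and 0.0603). The first call held with the averaging (-2.13, adjusted p = 0.0176) and when any 1 array was left out, with adjusted p from 0.00155 to 0.0186.

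Hoxb1a-deficient r4 lay below normal r4 in slc18a3a in each experiment, with log2 differences of -0.41, -0.12 and -0.78. The fitted change of -0.44 ± 0.23 had a 95% confidence interval from -0.94 to 0.06 and adjusted p = 1.00. With the experiment as a replicate block the interval was -0.83 to -0.05, and the adjusted p was 0.853. Groups without overlap and with the deficient samples lower were found for 1.47% of all probes, and lower values in each of the 3 experiments for 12.5%. Of the 17 other cranial motor neuron genes measured, 5, 3 and 17 were lower in the deficient sample of experiments 1, 2 and 3. The drop of slc18a3a was largest in experiment 3. Of these 17 genes, 7 lay below the array median on every normal r4 array, where a lower value says little. Of all 16227 probes, 6888, 8065 and 10269 were lower in experiments 1, 2 and 3.

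The neurofilament gene nefma measured 2.19, 1.49 and 2.32 in normal r4 of experiments 1, 2 and 3. It measured 1.41, 0.979 and 1.45 in Hoxb1a-deficient r4, and 1.05 in experiment 2 and 0.866 and 0.806 in experiment 3 in normal r2. Each normal r4 array lay above every array of the other 2 groups, by a narrow margin between normal r4 of experiment 2 and the deficient samples of experiments 1 and 3. The deficient samples and r2 overlapped. Group means were 2.00 ± 0.445, 1.28 ± 0.261 and 0.908 ± 0.128 (SD, n = 3) and so lay near the dimmer probes of the array.

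Within experiments 1, 2 and 3 nefma was lower in Hoxb1a-deficient than in normal r4 by log2 differences of -0.63, -0.61 and -0.68. A drop by 1.5 times or more in every experiment was found for 20 of 16227 probes (0.123%). It is the property for which the gene had already been singled out in earlier work on these data. The fitted change of -0.64 ± 0.26 had a 95% confidence interval from -1.21 to -0.07, with an unadjusted limma p of 0.0305 and an adjusted p of 1.00. With the replicate block the interval was -1.08 to -0.20, the unadjusted p 0.00888 and the adjusted p 0.771. In that fit 5.74% of all probes had an unadjusted p under 0.05. The nefma difference did not pass the test across all probes in either fit.

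Against normal r4, normal r2 had a log2 fold change of -1.12 ± 0.26 in nefma, which did not pass the test (limma adjusted p = 0.139). With the replicate block it was -1.08 and passed (adjusted p = 0.0362, beside 0.937% of probes called lower in that fit). In experiments 2 and 3 alone, which are the ones that hold r2, it did not pass with the block (adjusted p = 0.150) or without it (0.185). Within these experiments the differences were -0.51 and -1.48. Hoxb1a-deficient r4 and normal r2 differed in nefma by 0.48 ± 0.26 (95% confidence interval -0.09 to 1.05, adjusted p = 0.996), with opposite signs in the 2 experiments (-0.10 and 0.79).

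**Figure D2:**
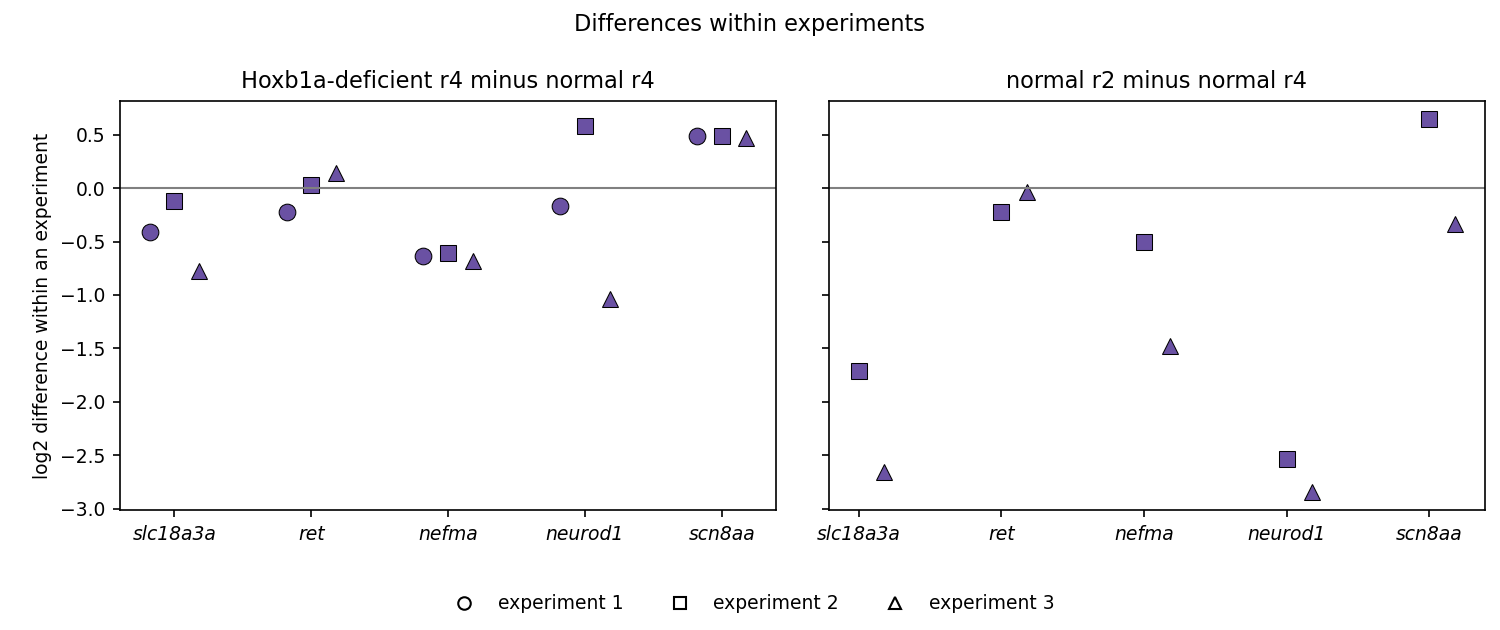
Log2 difference within each experiment for the 5 genes, Hoxb1a-deficient minus normal r4 on the left and normal r2 minus normal r4 on the right, where the experiment 3 point is the mean of 2 r2 samples. Each symbol is 1 experiment. On the left nefma lies at -0.68 to -0.61 and scn8aa at 0.47 to 0.49 in all 3 experiments, and on the right slc18a3a and neurod1 lie below -1.7 in both.

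The receptor gene ret measured 3.63, 1.07 and 1.05 in normal r4 of experiments 1, 2 and 3. It measured 3.11, 1.09 and 1.16 in Hoxb1a-deficient r4, and 0.913 in experiment 2 and 0.905 and 1.15 in experiment 3 in normal r2. The 2 arrays of experiment 1 were high and the other 7 lay between 0.905 and 1.16, with all 3 groups mixed among them. The mean of 1.91 ± 1.48 in normal r4 therefore came from a single array.

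No difference in ret passed the test. Hoxb1a-deficient and normal r4 differed by a log2 fold change of -0.01 ± 0.51 (95% confidence interval -1.15 to 1.12), and with the replicate block the interval narrowed to -0.32 to 0.29. The fitted change between normal r2 and normal r4 was -0.70 ± 0.51, and it was -0.17 with the replicate block and -0.11 in experiments 2 and 3 alone. Within experiments 2 and 3 r2 differed from normal r4 by -0.23 and -0.04. The interval of the blocked fit was -0.50 to 0.16. In experiments 2 and 3 normal r4 read 1.07 and 1.05, and the lowest value of any probe on an r2 array was 0.421. A drop as large as that of slc18a3a could therefore not have been read from this probe. The interval covers changes of the deposited values only, and such a drop in the transcript cannot be judged from it.

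The sodium channel gene scn8aa measured 3.75, 1.42 and 1.01 in normal r4 of experiments 1, 2 and 3. It measured 5.27, 2.00 and 1.41 in Hoxb1a-deficient r4, and 2.22 in experiment 2 and 0.671 and 0.957 in experiment 3 in normal r2. The experiment 1 arrays were again the highest, and in each experiment the deficient sample lay above its normal r4 partner. The r2 array of experiment 2 lay above both r4 arrays of that experiment, and those of experiment 3 lay below theirs.

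Deficient minus normal r4 gave nearly equal log2 differences of 0.49, 0.49 and 0.47 for scn8aa. The fitted change of 0.48 ± 0.62 had a 95% confidence interval from -0.88 to 1.85, and with the replicate block one from -0.02 to 0.98 (limma unadjusted p = 0.0563, adjusted p = 0.873). Higher values in each of the 3 experiments were found for 10.6% of all probes. Between normal r2 and normal r4 the fitted change was -0.64 ± 0.62 and 0.06 with the block, and the differences within experiments 2 and 3 were 0.64 and -0.34, so no direction held across experiments.

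Both ret and scn8aa, and also neurod1, had both arrays of experiment 1 above all others. For neurod1 this adds to the absence of r2 from that experiment. Among probes that stayed under 3 on all 7 other arrays, as ret and scn8aa did, 15.1% had this property. It was most frequent among the lowest probe numbers. Of the 812 probes numbered 1 to 933, which include scn8aa (number 2) and ret (number 9), 44.5% had both experiment 1 arrays on top, and their median log2 difference between experiment 1 and the others was 0.35. The next bin had 41.7% and 0.33, and the other 18 bins had 13.4 to 31.2% and medians from -0.41 to 0.02. The dark control spots of experiment 1 carried numbers from 16121 to 18337, above that of any of the 5 genes. The sources used here do not say how the numbers relate to a probe's place on the array, and the part of this pattern in the ret and scn8aa levels was not tested.

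**Figure D3:**
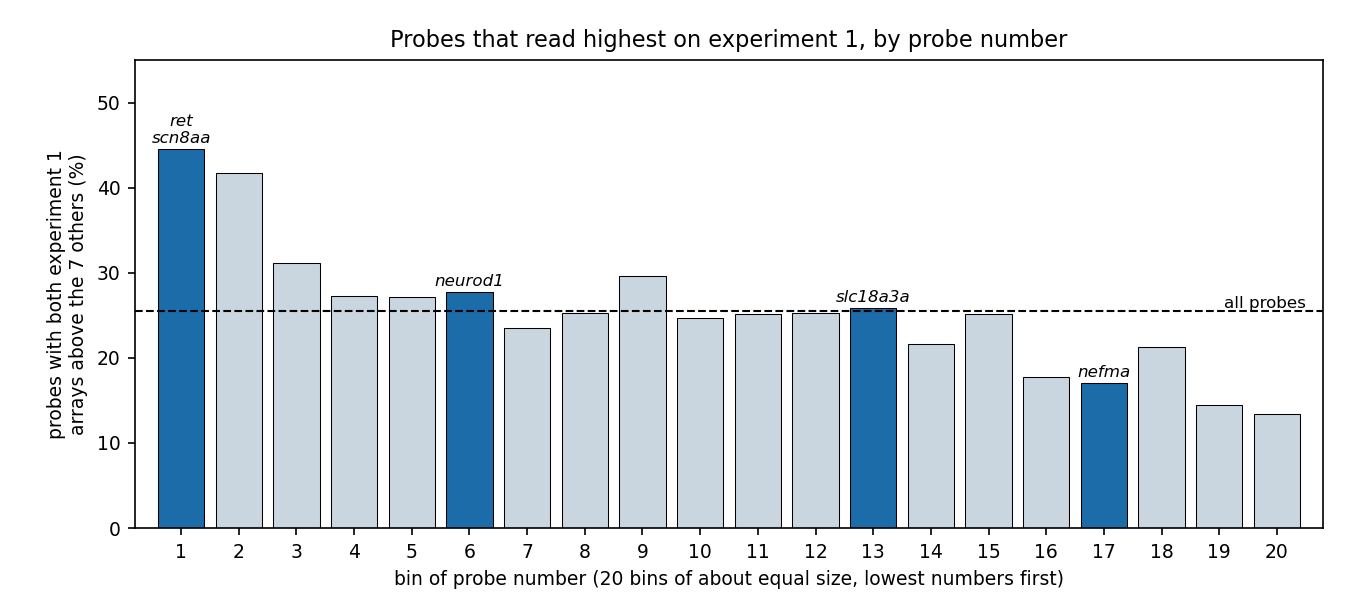
Share of probes, in percent, for which both arrays of experiment 1 lay above the other 7, in 20 bins of about equal size ordered by probe number. Blue bars hold 1 or more of the 5 genes and the dashed line is the share over all probes, 25.5%. The bin of ret and scn8aa has the highest share, 44.5%, and the bin of nefma lies below the dashed line.

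The lists of related genes showed how far the differences between the segments were shared. In Hoxb1a-deficient against normal r4, 0 list members passed the limma test, with or without the replicate block. At an unadjusted p under 0.05, without the block, 1 neural progenitor and 1 neural crest gene differed, beside 0.505% of all probes. Among 17 cranial motor neuron genes measured beside slc18a3a and ret, gata3, a transcription factor gene of the ear and, in the mouse, of rhombomere 4 neurons, was the 1 gene that fell in normal r2 against normal r4 (6.25 ± 3.36 to 0.784 ± 0.0785, SD, n = 3, log2 fold change -2.88, limma adjusted p = 0.00744). The transcriptional cofactor gene lmo4b passed as well with the replicate block (7.82 ± 4.01 to 2.96 ± 1.37, adjusted p = 0.0463). Over all probes, 0.444% were called lower without the block and 0.937% with it. The median log2 fold change of these 17 genes was -0.12, beside 0.08 for all probes. Within experiments 2 and 3 their median difference was 0.08 and -0.15, beside 0.01 and 0.01 for all probes, so no direction held across experiments. The LIM homeobox gene isl1a, which is switched on as motor neurons leave the cell cycle, measured 6.62 ± 1.84 in normal r4 and 7.09 ± 0.307 in r2, with the deficient samples at 8.05 ± 3.93. This is a log2 fold change of 0.13 between r2 and normal r4 (adjusted p = 0.960).

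Partners of the 5 genes in their own pathways gave little signal. Of acetylcholine genes other than slc18a3a, the breakdown enzyme gene ache was the 1 measured, and it lay below the array median in every group (0.669 ± 0.124 in normal r4 and 0.702 ± 0.131 in r2). The 3 measured partners of ret, the co-receptor genes gfra1a and gfra1b and the ligand gene gdnfa, lay below the array median on every array. Of the other neuronal intermediate filament genes, inab had a mean of 1.94 ± 0.744 in normal r4 and 1.41 ± 0.222 in r2, with the deficient samples at 2.49 ± 1.21. For prph these means were 1.95 ± 1.57, 1.55 ± 0.0700 and 2.23 ± 2.22. Neither passed the test in any comparison. Of the partners of sodium channels, the scaffold gene ank3b measured 3.59 ± 1.26 in normal r4 and 4.05 ± 1.13 in r2, and the channel-binding gene fgf13a 13.4 ± 2.39 and 19.2 ± 2.43 (adjusted p = 0.959 for both).

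Beside neurod1, 16 proneural and neuronal transcription factor genes were measured, and 0 passed the limma test in any comparison, with or without the replicate block. Between normal r2 and normal r4 1 of them, bhlhe22, had an unadjusted p under 0.05 (27.6 ± 7.08 in r4 and 17.1 ± 1.76 in r2, unadjusted p = 0.0376, adjusted p = 0.959). Of all probes 4.11% had an unadjusted p under 0.05 in that comparison. The proneural gene neurog1, which acts upstream of neurod1 in cranial ganglia, measured 1.57 ± 0.175 in normal r4 and 1.08 ± 0.273 in r2 (log2 fold change -0.56, adjusted p = 0.959). The median of the 16 was -0.14. Of 30 general neuron genes 0 passed between r2 and normal r4 (2 with an unadjusted p under 0.05). Their summed level was 493 to 671 in normal r4 and 516 to 636 in r2, with the deficient samples at 463 to 699. The values 671 and 699 came from experiment 1, which has no r2 array. With the replicate block the growth cone gene stmn2a was higher in r2 (19.2 ± 13.4 in normal r4 and 26.3 ± 7.57 in r2, adjusted p = 0.0144, beside 0.764% of probes called higher in that fit). In the same fit 3 of the 30, stmn2a (adjusted p = 0.00339) and the synaptic and signalling genes snap25b (0.00302) and gng3 (0.0380), were lower in Hoxb1a-deficient r4 than in r2, beside 1.34% of all probes. The lower levels of neurod1 and slc18a3a in r2 stood beside general neuron genes with a median log2 fold change of 0.02 between r2 and normal r4. It was 0.07 with the block, and 0.08 for all probes without it. Within experiments 2 and 3 the median difference of the general neuron genes was 0.12 and 0.07. In each of the 2 experiments 19 of the 30 were higher in r2, beside 8429 and 8715 of 16227 probes.

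Among 13 cranial sensory neuron and ganglion genes measured beside neurod1, the placode gene six4b fell from 15.8 ± 9.28 in normal r4 to 1.90 ± 0.244 in r2 (log2 fold change -2.91, limma adjusted p = 0.0101). The placode and ear gene eya1 fell from a mean of 14.0 to 2.91 (-2.12, adjusted p = 0.0493). With the replicate block 2 further genes passed, prdm12b of sensory neurons (26.8 ± 9.86 to 9.27 ± 1.42, adjusted p = 0.00564) and six4a (1.59 ± 0.627 to 0.689 ± 0.102, adjusted p = 0.0360). These calls stand beside 0.444% of all probes called lower without the block and 0.937% with it. The median of the 13 was -0.05. Both six4b and eya1 are also in the list of otic vesicle genes.

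Markers of tissue beside the hindbrain moved with these genes between the segments. Of 19 otic vesicle genes 7 were lower in r2 than in normal r4 (otop1, dlx3b, dlx4b, eya1, six4b, gata3 and epcam), beside 0.444% of all probes. In this list 0 were higher, and its median log2 fold change was -0.69. Within experiments 2 and 3 the median difference was -0.29 and -0.57. The summed otic level was 90.3 to 314 in normal r4, 115 to 288 in the deficient samples and 32.9 to 69.9 in r2. The values 314 and 288 came from experiment 1, which has no r2 array. In experiments 2 and 3 the sums were 90.3 and 152 in normal r4, and 125 and 115 in the deficient samples. Of the 19 genes, 7, 6 and 12 lay below the array median on every array of normal r4, deficient r4 and r2. The otic gene with the largest drop, otop1, measured 16.4 on average in normal r4 and 0.723 in r2. Other genes of the list did not pass the test without the block. At an unadjusted p under 0.05, 9 of the 19 differed, beside 4.11% of all probes. These include hmx3a and cldna, which were lower in r2 (log2 fold changes -1.27 and -0.69) but were not called. The ear gene pax2a measured 7.67 ± 6.27 and 4.33 ± 0.528 (log2 fold change -0.53, limma adjusted p = 0.959). For pax8, pax2b, sox10, sox9a, sox9b and bmp4 the mean lay below the array median in every group, so the lack of a drop says little there. For skin and periderm the summed level of 15 genes was 64.8 to 156, 85.5 to 162 and 33.8 to 64.0, and epcam and cldn3c were lower in r2. With the replicate block the claudin gene cldnb passed as well (2.67 ± 0.544 in normal r4 and 1.06 ± 0.104 in r2, adjusted p = 0.0341), beside 0.937% of all probes called lower in that fit. Single bright genes that did not pass the test weigh heavily in both sums. In normal r4 and r2, sparc of the otic list had means of 67.1 and 32.8, and cldni of the skin list 66.9 and 35.2. The sums therefore do not measure how much of each tissue a slice held. The part of these tissues in the neurod1 and slc18a3a differences was not tested.

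Markers of position and of other tissues were also counted. Of 17 midbrain, isthmus and rhombomere 1 genes 2 were higher in r2 (otx2b and fgf8a), beside 0.136% of all probes. With the replicate block en2a passed as well (1.17 ± 0.327 in normal r4 and 2.28 ± 0.774 in r2, adjusted p = 0.0314), beside 0.764% of all probes called higher in that fit. Of 11 hindbrain segment genes 4 were lower (hoxb1a, egr2b, hoxb3a and hoxa3a), beside 0.444% of all probes. The list's median log2 fold change was -1.25, and within experiments 2 and 3 the median difference was -0.81 and -0.91. Of 19 neural crest and pharyngeal genes gch2 was higher and dlx5a lower in r2, beside 0.136% and 0.444% of all probes. Of 21 neural progenitor, 18 skeletal muscle and 13 blood genes 0 passed the test between r2 and normal r4. In these lists 2, 1 and 1 had an unadjusted p under 0.05, beside 4.11% of all probes. With the replicate block the radial glia gene fabp7a was lower in r2 than in normal r4 (adjusted p = 0.0421, beside 0.937% of all probes). In the same fit the radial glia gene gfap was lower in Hoxb1a-deficient r4 than in r2 (adjusted p = 0.0441, beside 1.34% of all probes).

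**Figure D4:**
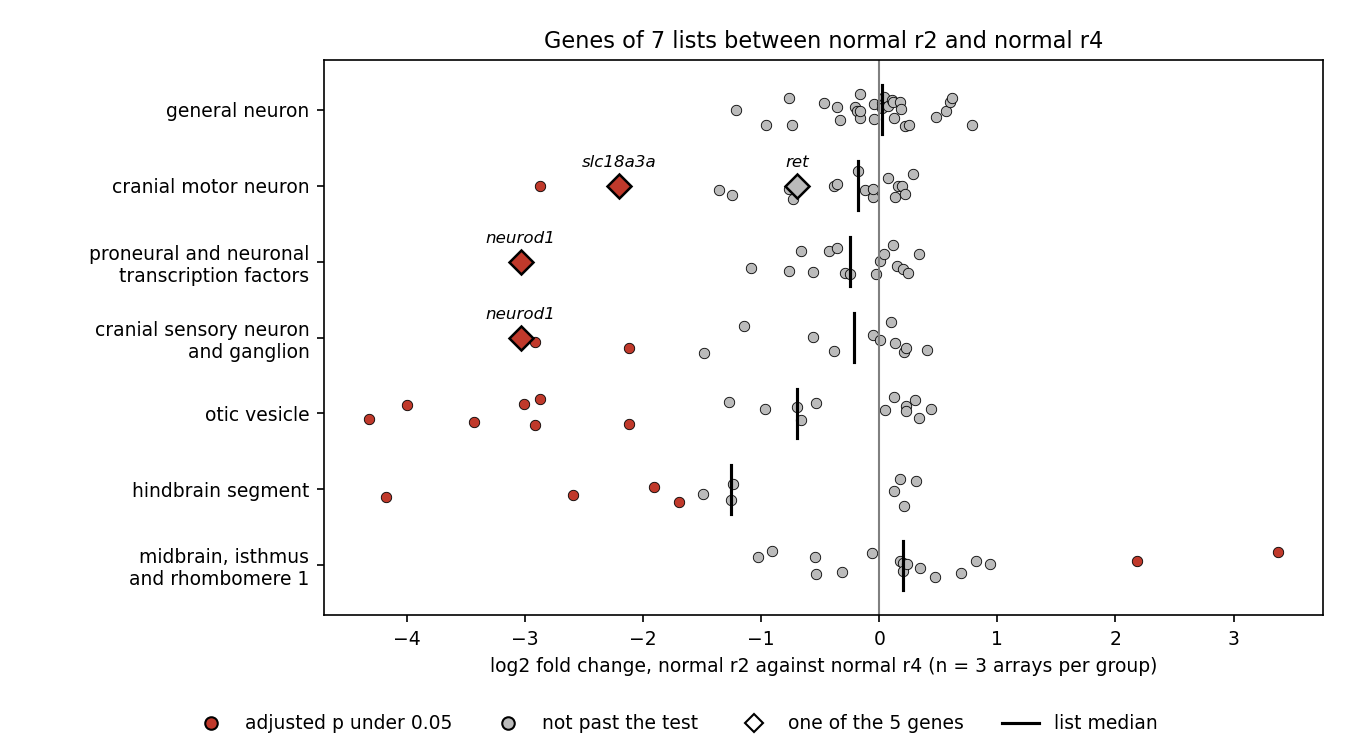
Log2 fold change of normal r2 against normal r4 for the measured genes of 7 lists, some of which share genes. Each point is 1 gene, red points passed the test, diamonds are 3 of the 5 genes described, and black lines are list medians with these genes included. The motor and neuronal lists centre near 0 with single genes far to the left, and the otic vesicle and hindbrain segment lists reach furthest to the left.

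The genes with the most similar patterns were sought among named genes with a mean above the array median and a clear spread, after log2 levels had been centred on the r4 samples of each experiment. For neurod1 the closest were the Hox gene hoxb3a of the hindbrain behind rhombomere 4 (Pearson r = 0.997 over 9 arrays), si:ch211-243g18.2 (0.994) and wu:fj62d01 (0.993). For slc18a3a they were efhd1 (0.990), the epithelial junction gene pkp1b (0.990) and lsr (0.989), a gene of epithelial cell contacts. For nefma they were an uncharacterised gene (0.925), the matrix protein gene matn4 (0.891) and lsr (0.890). The closest to scn8aa was rab3gap2 (0.941), and the closest to ret reached no more than 0.722 (pax6a). Centred levels of ret and scn8aa had SDs of 0.139 and 0.394, under the 0.5 asked of the genes set beside them. For ret in particular there was little spread to follow. Because levels were centred on the r4 samples, the filter on spread favours genes that differ in r2. The closest genes named for neurod1, slc18a3a and nefma were all lower in r2 than in normal r4 (log2 fold changes from -4.17 to -1.51). Their high correlations therefore in part restate the r2 differences and do not show a specific likeness. All these correlations describe 9 arrays that share experiments and tissues, and they carry no test. Without the centring only 2 of the 15 closest genes were the same.

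Between the 5 genes themselves, centred levels of slc18a3a correlated with those of neurod1 at 0.948 and of nefma at 0.870, and neurod1 with nefma at 0.685 (9 arrays). The r2 arrays, low in these genes, weigh heavily in these values, which in part restate the r2 differences. Between the r4 groups slc18a3a and neurod1 moved apart in experiment 2 (-0.12 and 0.59) and both fell in experiments 1 and 3. For ret and scn8aa the correlation was 0.808 as deposited and 0.162 after centring, which removes the differences between experiments. The order of tissues was normal r4, Hoxb1a-deficient r4 and normal r2 in the means of slc18a3a, ret, nefma and neurod1, for ret with experiment 1 setting the r4 means. Between the first 2 of these tissues no gene's difference passed the test, and between the last 2 those of slc18a3a and neurod1 did.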

How the data were processed

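The 9 one-colour arrays measured amplified, biotin-labelled RNA, per the labels' protocols. The authors deposited a table of 16399 rows with 1 column per sample on a linear scale. The values as the authors deposited them are read as a ratio, the brightness of a spot over a constant of its array, because all column medians are near 1 and all values are positive. The sources used here do not give the scanner, background treatment, normalization or detection calls. Every column was mapped to a sample (0 left over). The number of arrays limits the precision.

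Gene names came from the annotation of the array platform, brought up to date by Entrez ID with a RefSeq gene table that gave names only. The 172 actb2 control spots were left out. Differences were computed on log2 values without a pseudocount in R 4.3.3 with limma 3.58.1, by a linear model of the 3 groups over 9 arrays and moderated two-sided tests (eBayes), with Benjamini-Hochberg adjustment over 16227 probes and a threshold of 0.05. The procedure was tested on simulated data. Groups came from the sample titles, since the tissue tag of Hoxb1a-deficient r4 replicate 3 names rhombomere 4 without the deficiency and normal r2 replicate 2 carries no strain or stage tag.

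The replicate numbers pair the samples, because the series' design text numbers the experiments alike. Deviations from group means of same-numbered r4 arrays correlated across probes at 0.892, 0.730 and 0.683, and those of differently numbered arrays at -0.781 to 0.504. Such deviations cancel out within a group by construction, so these values are not independent, and the pairing rests on the design text. The model was therefore also fitted with experiments as a replicate block. Other alternatives were pseudocounts, quantile normalization, a filter on dim probes, a random block, averaging of the experiment 3 r2 samples, another eBayes setting and leaving out arrays.

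The 5 genes and the 17 gene lists were chosen with earlier results of these data known. Where a gene had several probes, the brightest stood for it. Named were the 5 genes, list members past the test in either fit, bhlhe22 for the lowest unadjusted p of a list in which none passed, and the 3 genes most like each of the 5, with centred log2 levels of SD 0.5 or more. The genes isl1a, neurog1, ache, gfra1a, gfra1b, gdnfa, inab, prph, ank3b and fgf13a were named for their role or because few genes of their list were measured. The skeletal muscle and blood lists are given by counts only.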

Additional observations from a re-analysis of the deposited data

How the results depend on the processing

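Each of the 15 differences of the 5 genes was recomputed under 20 alternatives. The replicate block moved nefma in normal r2 against normal r4 past the test (-1.08), as did a random replicate block (-1.09) and the block with quantile normalization (-1.16), and it changed no other call of the 5 genes. Calls were lost with pseudocounts, with fewer r2 samples and, for neurod1 in Hoxb1a-deficient r4 against r2, without Hoxb1a-deficient r4 replicate 2; the cause was not tested. With log2(value + 16) the r2 against r4 changes were -0.22 for slc18a3a and -1.52 for neurod1, those of Hoxb1a-deficient r4 against r2 were 0.15 and 1.41, and with log2(value + 1) neurod1 gave -2.83 and 2.63. With the experiment 3 r2 samples averaged, neurod1 gave -3.00 and 2.80, and slc18a3a 1.70 against r2. When 1 array was left out, neurod1 ranged from -3.21 to -2.73 and from 2.50 to 3.38, and slc18a3a against r2 from 1.69 to 1.91. The genes called in r2 against normal r4 (2) became 1, 0 and 1 under log2(value + 1), log2(value + 16) and averaging, and 1 to 2 without single arrays. Those called in Hoxb1a-deficient r4 against r2 (2) became 1, 0 and 0, and 0 to 2. Between the r4 groups the sign turned for ret with quantile normalization (0.044, with and without the block), with the block in experiments 2 and 3 (0.090) and in these experiments without it (0.090). Without single arrays ret ranged from -0.50 to 0.58, neurod1 from -0.53 to 0.34 and scn8aa from -0.068 to 1.03. In r2 against r4 scn8aa turned to 0.057 with the block, 0.087 with quantile normalization added and 0.055 in experiments 2 and 3 with the block. None of these was called, and the cause was not tested. Of the 15 most similar genes 2 were the same without centring. Over all probes, calls in r2 against normal r4 numbered 94, 276 with the block, 162 with quantile normalization, 44 and 4 with pseudocounts of 1 and 16, 358 with the random block, 443 with block and quantile normalization, 41 with averaging and 33 to 113 without single arrays. For Hoxb1a-deficient r4 against r2 they numbered 90, 359, 186, 41, 5, 428, 541, 30 and 27 to 113, with 147 for the block in experiments 2 and 3. Between the r4 groups they numbered 0, 2 with the block, 9 with the random block, 5 with block and quantile normalization and 1 with log2(value + 16) or in experiments 2 and 3 alone. Another probe could not be tried, since each of the 5 genes has 1.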
